A study of Mus musculus with 16 samples.

Results

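The hormone receptors of the newborn mouse testis were described across its cell types. The set holds 7 genes of the 30451 listed in the deposited table, chosen by name. Fshr encodes the receptor of follicle-stimulating hormone, Lhcgr that of luteinizing hormone, Prlr that of prolactin, Esr1 the estrogen receptor alpha, Nr3c1 the glucocorticoid receptor, and Thra and Thrb the thyroid hormone receptors alpha and beta.

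Whole testes were taken at postnatal day 2 from wild-type mice and from mice with a conditional knockout of the RNA helicase gene Ddx5. They were dissociated with TrypLE, a trypsin-like enzyme, and single cells were profiled with the 3′ kit v3 of 10X Genomics. The knockout was made with floxed Ddx5 alleles and an Mvh-Cre transgene, which is driven by a germ cell promoter. Because the mating used Ddx5+/- males, the sources used here do not say whether somatic cells also carried a deleted allele. How many animals were pooled is not stated there either. The labels list 8 numbered libraries for each genotype, but the table keeps only 1 suffix per genotype, so each genotype counted as 1 library and no test between genotypes was possible.

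The 2 gonadotropin receptors sit in the cell membrane and raise cyclic AMP through G proteins. In the postnatal testis Sertoli cells, the supporting cells of the seminiferous cords, are the known target of follicle-stimulating hormone, and steroid-producing Leydig cells that of luteinizing hormone. The prolactin receptor is a single-pass membrane protein that signals through JAK2 and STAT5. The other 4 receptors are transcription factors that bind a steroid or thyroid hormone; thyroid hormone is known to limit how long Sertoli cells of young rodents keep dividing.

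Fshr and Lhcgr are neighbours in the genome but, as shown further on, were read in different cells, so the sequences before their start sites are shown together. In GRCm38 with the GENCODE vM21 annotation, Lhcgr lies at chr17:88716481-88791990 and Fshr at chr17:88984952-89200675, both on the minus strand, with 192961 bases and 1 other annotated gene between them. In the same annotation Esr1 is at chr10:4611593-5005614, Prlr at chr15:10177238-10349180, Thra at chr11:98740638-98769006 and Thrb at chr14:17660261-18038090, all on the plus strand. RefSeq promoter sequences on GRCm38.p6 were matched for 5 of the 7 members, all but Nr3c1 and Thra. The 250 bases upstream of the Fshr start are chr17:89200676-89200925 and those of Lhcgr are chr17:88792015-88792264, both printed 5′ to 3′ along the minus strand. Capitals mark each match of 2 motifs on either strand, the E-box in the Fshr window and the GC box in the Lhcgr window.
Fshr: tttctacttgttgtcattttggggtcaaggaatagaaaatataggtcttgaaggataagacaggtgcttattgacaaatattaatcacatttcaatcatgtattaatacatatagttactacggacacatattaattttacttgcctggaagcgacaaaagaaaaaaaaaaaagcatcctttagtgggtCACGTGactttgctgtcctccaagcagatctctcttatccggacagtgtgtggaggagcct
Lhcgr: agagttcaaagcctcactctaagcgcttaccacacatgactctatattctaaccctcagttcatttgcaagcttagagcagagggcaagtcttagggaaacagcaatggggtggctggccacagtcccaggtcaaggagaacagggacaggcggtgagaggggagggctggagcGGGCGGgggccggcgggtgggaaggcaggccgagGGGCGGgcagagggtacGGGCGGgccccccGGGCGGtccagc

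The Fshr window held 1 E-box, with the letters CACGTG, beginning 61 bases before the start site, and 36.8% of its bases were G or C. The Lhcgr window held 4 GC boxes, with the letters GGGCGG, beginning 76, 42, 25 and 12 bases before the start, and was 63.2% G or C. Over 32851 mouse promoter windows of the same length the median was 52.4% G or C, 6.02% held the E-box, 32.7% the GC box and 12.4% the TATA box, searched for as TATAAA and without a match in these 2 windows. The 2 windows thus lay on either side of the median in base composition.

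After barcodes with fewer than 2000 genes or more than 10% mitochondrial UMIs (unique molecular identifiers, each standing for 1 captured transcript) were left out, 6329 wild-type barcodes remained, and 4950 from the library labelled Ddx5 knockout, with medians of 11170 and 11668.5 UMIs per cell. Ddx5 went against the label in the cells it was meant for: it stood at 1152 CPM (UMIs per 1000000 UMIs of the same cells) in the 125 wild-type cells of the germ gate and at 1736 CPM in the 12 of the other library. A 3′ tag can lie outside the deleted exons, so this level does not check the deletion. Ddx5 in the Sertoli, Leydig, myoid and stromal gates was 634 to 936 CPM in the wild type and 568 to 882 CPM in the other library. Both suffixes shared 12 barcode sequences.

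Cell types were set by gates on UMIs that use none of the 7 hormone receptors. The Sertoli gate (Amh of at least 3) held 2256 wild-type cells and 1635 of the library labelled knockout, the Leydig gate (Cyp11a1, Cyp17a1 and Hsd3b1 summing to at least 20) 177 and 143, and the stromal gate (Pdgfra of at least 1, Amh of at most 2) 3590 and 3005. The peritubular myoid gate (Acta2 of at least 5, Myh11 of at least 2) held 764 and 524 cells, the macrophage gate (C1qa, C1qb and C1qc summing to at least 5) 31 and 23, and the germ gate (at least 3 of Dazl, Ddx4, Mael and Stk31) 125 and 12. Each gate held the highest summed level of its own marker list in both libraries, but the gates were not pure. Cells passing 2 or more gates were 13% and 11.1% of the libraries, and 89.4% of myoid cells also passed the stromal gate. Stromal markers summed to 2250 and 2271 CPM in the myoid gate against 6582 and 6650 CPM in stroma, Leydig markers to 2271 and 1194 CPM in the macrophage gate against 27255 and 27019 CPM in Leydig cells, and Sertoli markers to 1831 CPM in the wild-type germ gate. Values for cells that pass 1 gate alone are therefore given beside several of the results.

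In brackets after a level or a share stands its 95% interval (exact Poisson or Clopper-Pearson), and after a ratio the exact binomial interval of 2 counts. All of them cover counting error only, not differences between animals.

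**Figure D1:**
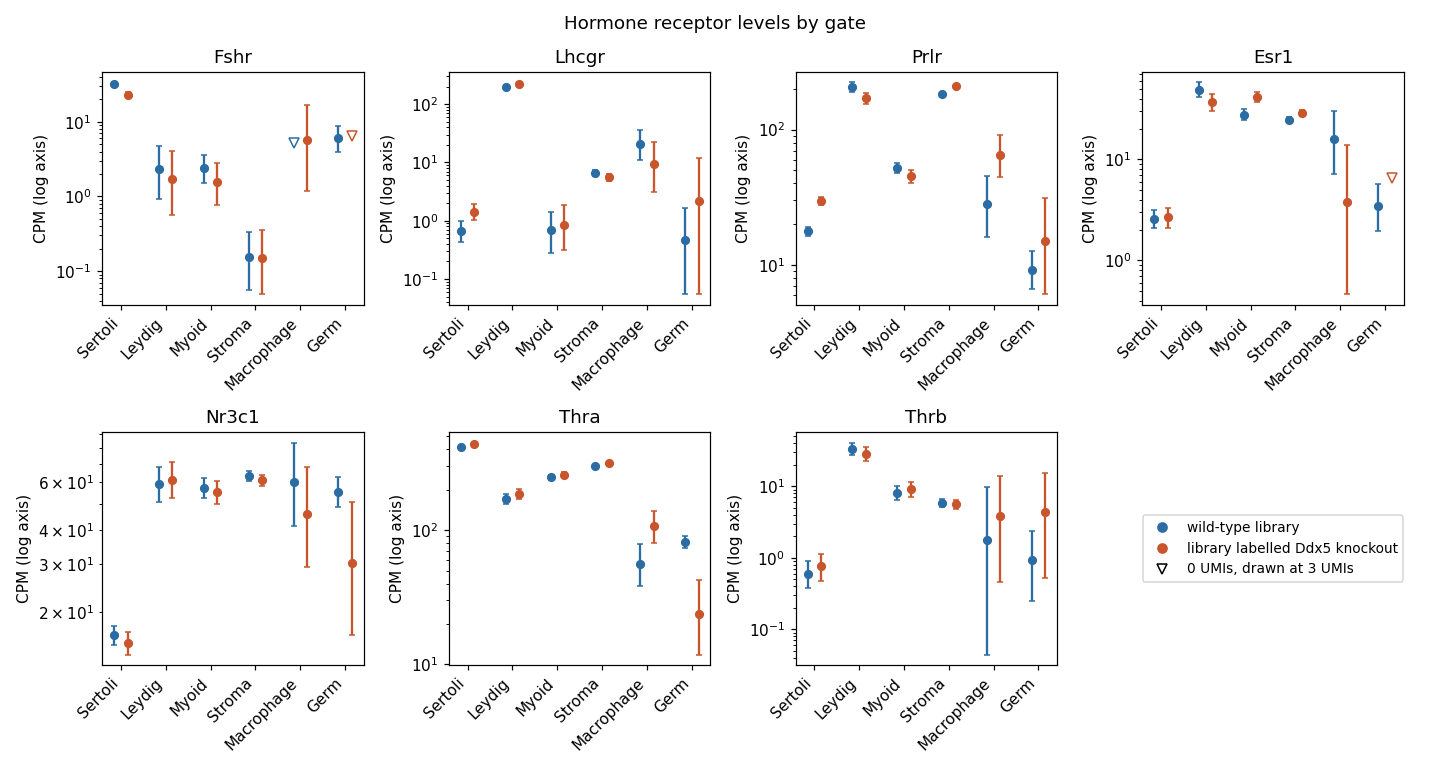
Level of each of the 7 receptors (CPM, log axis) in 6 gates, with 1 point for each library and bars for the 95% Poisson interval. Fshr stands highest in Sertoli cells (31.8 and 23.1 CPM), Lhcgr in Leydig cells (199 and 219 CPM), and Nr3c1 lies between 45.7 and 63.1 CPM in the Leydig, myoid, stromal and macrophage gates.

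Fshr was a Sertoli cell gene. Its level in the Sertoli gate was 31.8 CPM (29.98–33.6) in the wild type, from 1174 UMIs, and 23.1 CPM (21.4–24.9), from 669 UMIs, in the library labelled knockout. That was 63.5 times (42.1–101) and 71.8 times (40.8–140) the level in all cells outside the gate. Of all genes with at least 20 UMIs, 10.7% were at least 2-fold higher in Sertoli cells than outside in both libraries, and of the 7 receptors Fshr was the 1 that was.

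An Fshr UMI was seen in 37.5% and 32.0% of Sertoli cells, at median depths of 13711 and 15847 UMIs. In stroma, which should lack the receptor, the share was 0.167% and 0.166% at 9838.5 and 9933 UMIs. No Sertoli cell held more than 5 Fshr UMIs in the wild type or 4 in the other library, and 1410 and 1112 cells held none. Single Sertoli cells without the receptor cannot be told from undetected ones at these counts. Of the Fshr UMIs in kept cells, 93.6% and 95.6% lay in cells that passed the Sertoli gate alone.

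The Fshr level hardly followed that of Amh, the gene encoding anti-Müllerian hormone that sets the gate. Among cells of no other gate and without Pdgfra, 3 to 9 Amh UMIs went with 31.5 and 22.8 CPM of Fshr in the 2 libraries. Cells with 10 to 29 Amh UMIs had 35.9 and 25.5 CPM, and cells with 30 or more had 33.1 and 24.7 CPM. Below the gate, 40 wild-type cells with 1 to 2 Amh UMIs still had 40.7 CPM, from 16 UMIs, and 30 of the other library 17.6 CPM, from 6. No Fshr UMI was found in 174 and 132 cells without Amh. These Amh classes, like the other sub-sets below, were chosen after levels had been seen.

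Fshr was lower in the library labelled knockout in every Amh class inside the gate. The ratio to wild type was 0.728 (0.661–0.801) over the whole gate and 0.723, 0.709 and 0.746 in the 3 classes from low to high Amh. It was 0.708 (0.642–0.780) in cells of the Sertoli gate alone and 0.719 (0.646–0.799) in those of them without a Pdgfra UMI. Over all genes with at least 20 UMIs the log2 ratio in Sertoli cells, of CPM with 10 added, had a median of -0.0076. It ran from -0.174 at the 5th to 0.148 at the 95th percentile, and Fshr stood at -0.335. The added 10 CPM narrows this range for genes of low level, so it does not show how unusual Fshr was. Without it, 8.08% of genes were at least 1.5-fold lower, a limit that Fshr did not reach. With 1 library per genotype, genotype and library cannot be told apart.

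Dividing Sertoli cells carried less Fshr. Cells in which Mki67, Top2a, Ube2c and Cdk1 summed to at least 3 UMIs had 31.2 and 21.5 CPM, and cells with none of these had 38.8 and 30.5 CPM. The ratio of cycling to non-cycling cells was 0.804 (0.685–0.947) in the wild type and 0.704 (0.562–0.890) in the other library.

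Lhcgr had its highest level in Leydig cells. Its level in the Leydig gate was 199 CPM (183–215) from 598 UMIs in the wild type and 219 CPM (202–237) from 629 UMIs in the library labelled knockout. Those levels were 331 (246–453) and 295 (219–406) times the levels outside the gate. Of the Lhcgr UMIs, 55.1% and 64.9% lay in cells of the Leydig gate alone and 37.9% and 28.7% in cells of more than 1 gate. The Leydig gate had 8.4% of genes at least 2-fold higher than outside in both libraries, and 3 of the 7 receptors, Lhcgr, Thrb and Esr1.

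An Lhcgr UMI was found in 70.1% (62.7–76.7) and 83.2% (76.1–88.9) of Leydig cells, at median depths of 14732 and 17355 UMIs. In Sertoli cells, which should lack it, the share was 0.399% and 0.856%. In single Leydig cells counts ran from 0, in 53 of 177 and 24 of 143 cells, up to 17 and 22 UMIs. Over the whole gate the ratio between libraries was 1.10 (0.984–1.23), which includes 1. In cells of the Leydig gate alone it was 1.31 (1.14–1.51), from 247 against 189 CPM.

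Within the Leydig gate Lhcgr was highest in the cells with most UMIs of the steroid-making enzymes, the genes that set the gate. Cells of the Sertoli, myoid, macrophage and germ gates were left out here, but cells that also pass the stromal gate were kept. The sums were not scaled for depth, and the part of depth or of mixed barcodes was not tested. Cells in which Cyp11a1, Cyp17a1 and Hsd3b1 summed to 300 or more UMIs held 251 and 270 CPM of Lhcgr. Cells with sums of at least 100 but under 300 held 127 and 74.2 CPM. The upper class exceeded the lower by 1.97 times (1.58–2.47) in the wild type and 3.64 times (2.44–5.67) in the other library, although both classes pass the gate by a wide margin. The levels were not ordered throughout: the few cells with sums of 20 to 99 held 85.8 CPM, from 5 UMIs, in the wild type and 193 CPM, from 14 UMIs, in the other library, where the upper class stood at 1.40 (0.827–2.58) of that level.

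A low Lhcgr level remained in stroma after Leydig cells were set aside. Cells of the stromal gate alone had 1.33 and 1.20 CPM, which was 0.00706 and 0.00484 of the level in cells of the Leydig gate alone. The same fraction was 0.000588 and 0.000702 for Cyp11a1, 0.00221 and 0.00174 for Insl3, 0.00251 and 0.00222 for Star and 0.0135 and 0.0139 for Fabp3, the gene of a fatty acid binding protein. Lhcgr thus lay above Cyp11a1, Insl3 and Star and below Fabp3. Cyp11a1 is also a gate gene, so its fraction is held down by the gate itself. The part of free RNA in these levels was not tested.

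**Figure D2:**
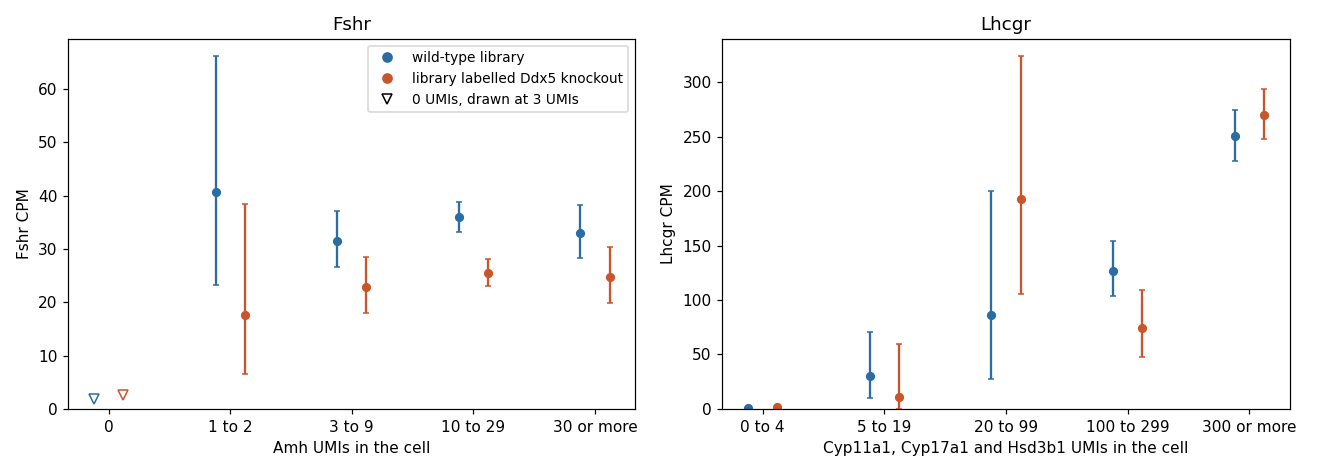
Fshr level by Amh UMIs per cell and Lhcgr level by the sum of 3 steroidogenic genes per cell (CPM, 1 point for each library, bars for the 95% Poisson interval). Fshr stays between 22.8 and 35.9 CPM over the Amh classes inside the gate, whereas Lhcgr reaches 251 and 270 CPM in the class of 300 or more steroidogenic UMIs.

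Of the 6 gates, Prlr was highest in stroma and Leydig cells. Cells of no gate that also lacked Amh, of no cell type named here, held 206 and 186 CPM. The gene shares 203 exon bases with Gm21973 on the same strand, so reads from these bases cannot be assigned to 1 gene by position. In stroma the level was 183 CPM (179–187) from 7126 UMIs in the wild type and 209 CPM (204–214) from 6922 UMIs in the library labelled knockout. In Leydig cells it was 206 CPM (190–223) and 170 CPM (156–186). Leydig cells were therefore first in the wild type and stroma first in the other library. In cells of 1 gate alone stroma was first in both, with Leydig cells at 0.891 (0.800–0.990) and 0.606 (0.534–0.685) of its level.

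Against all cells outside it, stroma held 5.77 (5.44–6.11) and 5.02 (4.73–5.32) times as much Prlr. Stroma had 15.8% of genes at least 2-fold higher than outside in both libraries, and 4 of the 7 receptors, Prlr, Esr1, Nr3c1 and Thrb. A Prlr UMI was seen in 64.8% and 68.0% of stromal cells and in 83.6% and 85.3% of Leydig cells. Lhcgr and Prlr were seen together in 62.1% and 72.0% of Leydig cells.

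Within stroma Prlr varied several-fold. Stromal cells were divided by 2 short lists of stromal genes, Lum, Dpt and Aspn (list A) and Tbata, Cyp26b1 and Smoc2 (list B), each counted as present at a sum of 2 UMIs, among cells of the stromal gate alone. Cells with list A only held 379 and 358 CPM of Prlr, cells with both lists 268 and 295 CPM, and cells with list B only 158 and 169 CPM. The fewer cells with neither list held 101 and 140 CPM, from 78 UMIs in each library. Cells with A only exceeded those with B only by 2.40 times (2.10–2.74) and 2.12 times (1.85–2.41).

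Esr1 was highest in cells with list B only, at 31.5 and 40.7 CPM, and at 24.7 and 23.3 CPM in cells with neither list. It was at 15.9 and 16.0 CPM in cells with both lists and at 7.24 and 18.3 CPM, from 5 and 14 UMIs, in cells with A only, so that these 2 classes were ordered differently in the 2 libraries. Cells with A only held 0.230 (0.0742–0.541) and 0.450 (0.244–0.764) of the Esr1 level of cells with B only. Thrb was at 2.55 and 2.50 CPM in cells with both lists and at 6.40 and 6.28 CPM in cells with B only. Cells with A only gave just 1 and 2 Thrb UMIs, and cells with neither list 12.99 and 14.3 CPM, from 10 and 8 UMIs.

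Dividing stromal cells held less Prlr than stromal cells with none of the 4 cycling genes, 130 against 272 CPM in the wild type and 146 against 296 CPM in the library labelled knockout. The ratio was 0.479 (0.448–0.512) and 0.494 (0.461–0.529). It was also below 1 within both classes that were split: 0.537 (0.494–0.583) and 0.581 (0.535–0.629) in cells with both lists, and 0.441 (0.391–0.497) and 0.338 (0.291–0.391) in cells with list B only. Cells with list A only were not split. Myoid cells inside the stromal gate also held little, 0.251 (0.228–0.276) and 0.187 (0.166–0.211) of the level in cells of the stromal gate alone.

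**Figure D3:**
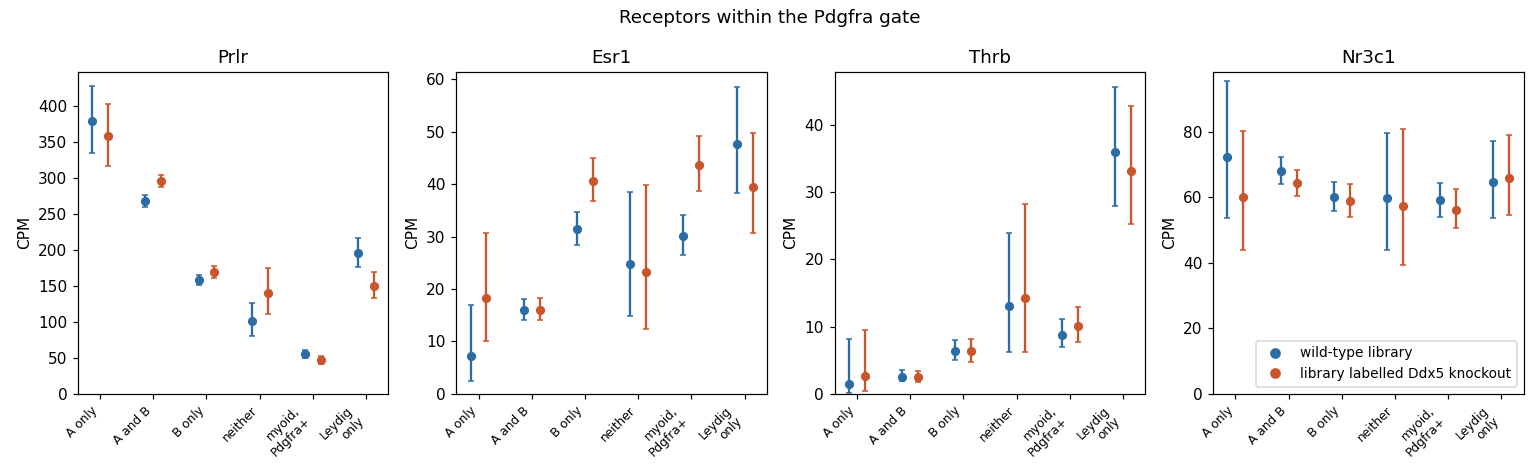
Prlr, Esr1, Nr3c1 and Thrb in sub-sets of stromal and Leydig cells (CPM, 1 point for each library, bars for the 95% Poisson interval). Prlr falls from 379 and 358 CPM in cells with list A only to 158 and 169 CPM in cells with list B only, while Esr1 is at 7.24 and 18.3 CPM in the former and 31.5 and 40.7 CPM in the latter.

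Sertoli cells gave a low mean Prlr that lay almost wholly in a few of them. The gate held 17.8 CPM (16.4–19.2) in the wild type and 29.6 CPM (27.6–31.6) in the library labelled knockout, a ratio of 1.66 (1.5–1.84). Among cells of the Sertoli gate alone, 230 of 2172 (10.6%) and 253 of 1599 (15.8%) also had a Pdgfra UMI. These cells held 526 of 583 (90.2%) and 744 of 798 (93.2%) of the Prlr UMIs, and their median depth was 21726 and 24197 UMIs against 13017.5 and 14880 in the others.

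Without Pdgfra, Sertoli cells held 1.98 and 2.49 CPM of Prlr, with a ratio between libraries of 1.26 (0.851–1.86). With Pdgfra they held 102 and 120 CPM, with a ratio of 1.18 (1.05–1.32). The share of Pdgfra-bearing cells also differed between the libraries, and its part in the ratio over the whole gate was not tested.

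Other stromal genes moved with Prlr in the Pdgfra-bearing Sertoli cells. Their Prlr was 0.463 and 0.483 of the level in cells of the stromal gate alone, beside 0.391 and 0.441 for Dcn, 0.427 and 0.411 for Ogn, 0.389 and 0.393 for Dlk1, 0.375 and 0.425 for Col1a1 and 0.421 and 0.389 for Lum. In Sertoli cells without Pdgfra the Prlr fraction was 0.00902 and 0.0100, in the range of 0.00550 to 0.0172 spanned by those 5 genes. Esr1 there was 0.0399 (0.0259–0.0590) and 0.0238 (0.0126–0.0410), from 26 and 13 UMIs. In the library labelled knockout its interval thus reached into that range. Nr3c1 was 0.174 and 0.181, above that range, and Thra was 1.37 and 1.32. Whether a Sertoli barcode with Pdgfra holds 2 cells was not tested.

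**Figure D4:**
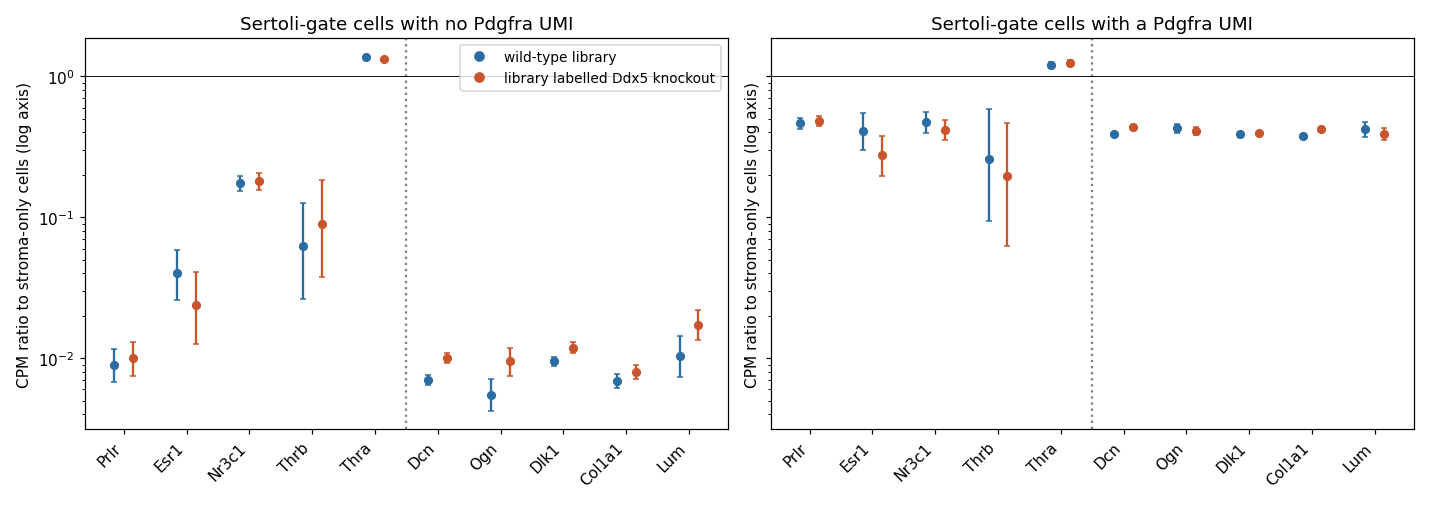
Level in Sertoli-gate cells as a fraction of the level in cells of the stromal gate alone (log axis), for the receptors and for stromal marker genes, in cells without and with a Pdgfra UMI in each library. With Pdgfra, Prlr (0.463 and 0.483) lies with Dcn, Ogn, Dlk1, Col1a1 and Lum (0.375 to 0.441), and without Pdgfra all of these are below 0.0172 or at it.

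The macrophage gate gave 28.1 and 64.8 CPM of Prlr, from 16 and 34 UMIs, but no Prlr and no Lhcgr UMI was found in cells of the macrophage gate alone in either library. None of the 7 receptors was at least 2-fold higher in macrophages than outside in both libraries, where 7.56% of genes were. None was in germ cells either, where 16.9% of genes were.

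Esr1, the ligand-activated transcription factor for estrogens, was spread over Leydig, myoid and stromal cells. It stood at 49.1 CPM (41.5–57.7) and 36.9 CPM (30.2–44.6) in Leydig cells, at 27.8 CPM (24.6–31.3) and 41.3 CPM (36.7–46.3) in myoid cells, and at 24.8 CPM (23.2–26.4) and 28.7 CPM (26.9–30.6) in stroma. The order of these 3 differed between the libraries. Leydig cells led in the wild type, and in the other library myoid and Leydig cells were not separated beyond counting error. Sertoli cells were far lower at 2.57 and 2.66 CPM.

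Leydig cells held 3.74 (3.12–4.44) and 2.28 (1.85–2.79) times the Esr1 level outside the gate. The myoid gate had 4.87% of genes at least 2-fold higher than outside in both libraries, and 2 of the 7 receptors, Esr1 and Thrb. Within the stromal gate, myoid cells exceeded cells of stroma alone by 1.33 times (1.15–1.54) and 1.73 times (1.5–2.00). An Esr1 UMI was seen in 50.3% and 48.3% of Leydig cells and in 3.68% and 3.91% of Sertoli cells.

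Over whole gates Esr1 moved in opposite directions between libraries. The ratio of the library labelled knockout to wild type was 1.48 (1.26–1.76) in myoid cells and 1.16 (1.06–1.27) in stroma but 0.75 (0.579–0.969) in Leydig cells. In cells of 1 gate alone the ratios were 1.12 (0.384–2.97) in myoid cells, from 7 against 14 UMIs, 1.11 (0.999–1.24) in stroma and 0.827 (0.596–1.14) in Leydig cells. The 3 kept their directions, but with fewer UMIs all 3 intervals included 1. In myoid cells that also passed the stromal gate, most of the myoid gate, the ratio was 1.45 (1.22–1.73). In stromal cells with list B only, a sub-set of the stromal gate alone, the ratio was 1.29 (1.12–1.49). It was 1.01 (0.840–1.21) in cells with both lists. In cells with A only it was 2.53 (0.860–8.96), from 14 against 5 UMIs, and in cells with neither list 0.943 (0.428–2.01).

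Nr3c1, the receptor of corticosterone, differed least among the cell types outside the cords. It was at 63.1 CPM (60.6–65.6) and 60.7 CPM (58.1–63.5) in stroma, 58.8 and 61.2 CPM in Leydig cells, 57.0 and 54.9 CPM in myoid cells and 59.8 and 45.7 CPM in macrophages. Germ cells had 55.3 CPM (48.5–62.8) in the wild type. In the other library they had 30.2 CPM (16.5–50.7) from 14 UMIs, below stroma, and 13.5 CPM from 4 UMIs in cells of the germ gate alone. Ranked by level, neighbours among the 4 other cell types were not separated beyond counting error in both libraries. Types further apart in rank were not compared.

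Sertoli cells stood apart with 16.5 CPM (15.2–17.8) and 15.4 CPM (14–16.9) of Nr3c1. Stroma held 2.69 (2.50–2.90) and 2.88 (2.64–3.14) times the level outside it. An Nr3c1 UMI was seen in 46.0% and 44.6% of stromal cells and in 19.4% and 19.7% of the more deeply read Sertoli cells. Unlike Prlr, Nr3c1 was a little higher in dividing stromal cells, by 1.16 times (1.04–1.28) and 1.14 times (1.02–1.28). The ratio was 1.18 (1.02–1.35) and 1.25 (1.08–1.44) in cells with both lists. With list B only it was 1.15 (0.976–1.36) and 1.02 (0.840–1.25), which both include 1.

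The 2 thyroid hormone receptors were highest in different cells, although Thra was read in every gate. Thra was read in nearly every Sertoli cell (99% and 99.3%), at 417 CPM (410–423) in the wild type and 439 CPM (431–446) in the library labelled knockout. Stroma followed with 297 and 317 CPM, myoid cells with 246 and 259 CPM and Leydig cells with 170 and 184 CPM, each below the one before it beyond counting error in both libraries.

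Thra in Sertoli cells was 1.51 (1.48–1.55) and 1.44 (1.41–1.48) times the level outside, under the 2-fold limit, so its pattern was graded rather than confined to a type. Germ cells held 81.2 CPM in the wild type, and 23.5 CPM where cells passed the germ gate alone. Cycling cells held less Thra than cells with none of the 4 cycling genes. The ratio was 0.861 and 0.870 in the Sertoli gate and 0.789 and 0.841 in stroma. The gene shares 263 exon bases with Nr1d1 on the opposite strand, and whether the counting used strand is not given in the sources used here, so reads of the pair could not be separated with certainty.

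Thrb was low and had its highest level in Leydig cells. Leydig cells held 33.5 CPM (27.3–40.8) from 101 UMIs in the wild type and 28.5 CPM (22.7–35.4) from 82 UMIs in the library labelled knockout. Myoid cells held 8.07 and 9.13 CPM, stroma 5.90 and 5.58 CPM and Sertoli cells 0.595 and 0.760 CPM. Sertoli cells, which held the most Thra, thus held the least Thrb of these 4. Because stroma is far larger, 38.8% and 38.9% of all Thrb UMIs lay in cells of the stromal gate alone against 20.3% and 21.5% in cells of the Leydig gate alone.

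The Thrb level in Leydig cells was 11.5 (8.98–14.5) and 9.36 (7.14–12.2) times that outside, and 8.12 (5.96–11.0) and 8.05 (5.76–11.2) times that of stroma when only cells of 1 gate were compared. A Thrb UMI was seen in 41.2% and 39.2% of Leydig cells, against 0.887% and 1.16% of Sertoli cells. In the stromal gate, myoid cells exceeded the others by 1.98 times (1.47–2.66) and 2.43 times (1.75–3.35).

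Between libraries, few receptor levels moved past 1.5-fold. In Sertoli cells 4.33% of genes with at least 20 UMIs were at least 1.5-fold higher in the library labelled knockout and 8.08% lower, and of the 7 receptors Prlr and Lhcgr were higher and none lower. Beside the Prlr ratio of 1.66, the stromal markers in the Sertoli gate summed to 528 CPM in the wild type and 797 CPM in the other library. The Sertoli ratio of Lhcgr, 2.09 (1.24–3.59), came from 41 against 25 UMIs, and cells of the Sertoli gate alone held just 6 and 4. In Leydig cells 5.8% of genes were higher and 5.72% lower, and in stroma 4.31% and 5.27%, with none of the 6 receptors that reached 20 UMIs past the limit in either.

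In myoid cells 3.76% of genes were higher and 5.21% lower, and of 6 receptors Fshr was lower, with a ratio of 0.646 (0.286–1.37) from 11 against 24 UMIs, none of them in cells of the myoid gate alone. In macrophages 10.8% were higher and 11.8% lower. Of the 3 receptors counted there Prlr and Thra were higher, at ratios of 2.30 (1.24–4.47) and 1.90 (1.21–3.03), in a gate of 31 and 23 cells whose stromal markers summed to 420 and 1095 CPM. With 12 germ cells in the library labelled knockout, that gate was left out of these counts. Its ratios were 0.547 (0.294–0.935) for Nr3c1 and 0.292 (0.145–0.530) for Thra. Prlr was at 1.63 (0.617–3.68), from 7 against 40 UMIs, and Fshr had 0 against 26 UMIs. Sertoli markers in this gate summed to 1831 CPM in the wild type and 110 CPM in the other library. Over all its genes the log2 ratio had a median of -0.423 and ran from -1.84 at the 5th to 0.986 at the 95th percentile. Nr3c1 stood at -0.699 and Thra at -1.43 on this scale. Of genes with at least 100 UMIs there, 59.3% were at least 1.5-fold lower.

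Smaller differences stood outside counting error. Prlr was higher in the stroma of the library labelled knockout by 1.14 times (1.10–1.18) and Thra by 1.07 times (1.04–1.10) in stroma and 1.05 times (1.03–1.08) in Sertoli cells. In cells of the Sertoli gate alone without a Pdgfra UMI the Thra ratio was 1.02 (0.993–1.05), which includes 1. Prlr was lower in Leydig cells, at 0.828 (0.734–0.934). Nr3c1 ratios in the 5 somatic gates all had intervals that included 1, and so did those of Thrb. In bulk or summed counts, fewer cells of a type and less RNA per cell cannot be told apart; the levels here are per UMI of the gated cells.

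**Figure D5:**
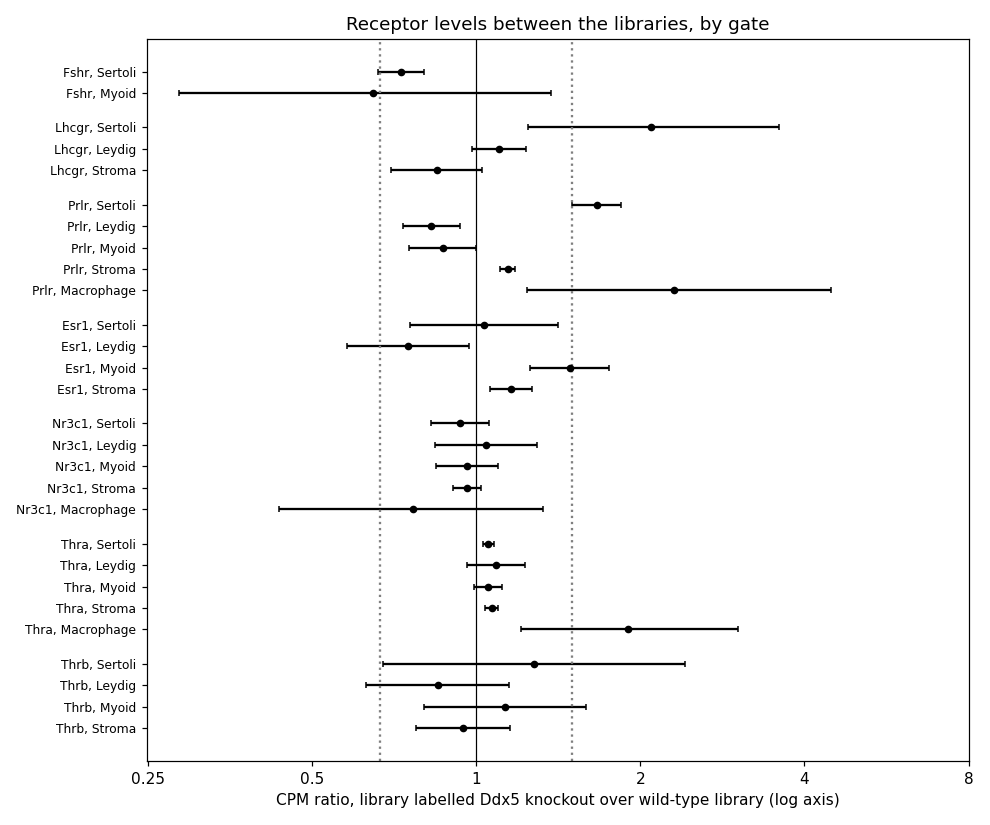
Ratio of the library labelled Ddx5 knockout to wild type for each receptor and gate (log axis, bars for the exact binomial 95% interval, dashed lines at 1.5-fold). Fshr in Sertoli cells lies at 0.728 with a narrow interval, while Prlr lies above 1 in Sertoli cells (1.66) and stroma (1.14) and below 1 in Leydig cells (0.828).

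The genes that act beside the receptors were followed through lists written with earlier results of these data known. Of 20 other hormone receptors with at least 20 UMIs, 4 were at least 2-fold higher in Sertoli cells than outside in both libraries, among them Esr2, the estrogen receptor beta, at 4.52 and 5.70 CPM, and Vdr, the vitamin D receptor, at 5.14 and 5.32 CPM. Another 4 were higher in Leydig cells, among them Oxtr, the oxytocin receptor, at 115 and 122 CPM, and Nr5a1, a regulator of steroid enzymes, at 306 and 428 CPM. These counts stand beside 10.7% of all genes in Sertoli cells and 8.4% in Leydig cells. In stroma, where 15.8% of all genes were higher, 5 of the 20 were, among them Ghr, the growth hormone receptor, at 55.9 and 56.3 CPM, and Nr2f2, an orphan nuclear receptor, at 711 and 856 CPM.

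None of the 16 genes of the gonadotropin signalling list was at least 2-fold higher in Sertoli cells, where Fshr lay and 10.7% of all genes were, and 2 were in Leydig cells, beside 8.4%, and 2 in stroma, beside 15.8%. Those in Leydig cells were Adcy9, an adenylyl cyclase, at 31.9 and 35.1 CPM, and Prkar2b, a regulatory subunit of protein kinase A, at 1410 and 1230 CPM.

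Of 9 genes of the prolactin list, which signal or damp signals below Prlr, Socs1 (17.5 and 18.5 CPM) and Socs3 (34.4 and 23.6 CPM) were higher in stroma, 2 of 9 beside 15.8% of all genes. The other feedback inhibitors Cish (27.5 and 26.4 CPM) and Socs2 (541 and 553 CPM) were higher in Sertoli cells, 2 of 9 beside 10.7%, where Prlr was at 1.98 and 2.49 CPM in cells without Pdgfra. In the germ gate 3 of the 9 were higher, beside 16.9%.

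Of 15 glucocorticoid genes, 4 were higher in stroma and none in Sertoli cells. Among those in stroma, Hsd11b2 was at 42.7 and 48.8 CPM and the receptor target Tsc22d3 at 50.1 and 61.5 CPM. Beside the 15.8% of all genes in stroma and 10.7% in Sertoli cells, the germ gate had the most, with 5 of 15 beside 16.9%. Between libraries none of the 15 was 1.5-fold higher and 5 were lower in stroma, where 4.31% and 5.27% of all genes were. Of 14 counted in each, 4 were lower in myoid cells, beside 5.21% of all genes, and 3 in Sertoli cells, beside 8.08%, with none higher. Of 13 in Leydig cells 1 was higher, beside 5.8%, and 1 lower, beside 5.72%. Of 11 in macrophages 2 were higher, beside 10.8%, and 2 lower, beside 11.8%. Counts between libraries for the other lists are not given here.

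Of 14 thyroid hormone genes, 3 were higher in stroma, among them the deiodinase genes Dio2 and Dio3, beside 15.8% of all genes. In Leydig cells 3 were higher, Dio2 again, Thrsp and Nr1d1, beside 8.4%, and in the germ gate 4, beside 16.9%. Dio3, whose enzyme inactivates thyroid hormone, was at just 0.949 and 1.15 CPM. Crym, which encodes a thyroid hormone binding protein, was higher in Sertoli cells at 13.4 and 13.2 CPM, as 1 of 2 genes there, beside 10.7%.

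Of 10 estrogen and androgen genes, Hsd17b1 (370 and 385 CPM), Hsd17b3 (313 and 312 CPM) and the estrogen target Greb1 (139 and 142 CPM) were higher in Sertoli cells, 3 of 10 beside 10.7% of all genes. Both Hsd17b enzymes act on the last step to active sex steroids. Higher in Leydig cells, 2 of 10 beside 8.4%, were Star, which carries cholesterol into mitochondria, at 745 and 897 CPM and the androgen-reducing enzyme Srd5a1 at 33.5 and 23.3 CPM.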

How the data were processed

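The authors aligned reads to GRCm38 and counted UMIs with Cell Ranger 3.1.0 (Seurat 3.1.5 is also named in the submitters' notes), and deposited raw UMI counts of both genotypes in 1 table. No file names the suffixes' genotypes: they were matched by the cell numbers in the study's text, and CRE UMIs occurred under the knockout suffix only. Kept cells summed to 82916872 and 66208479 UMIs. The members, gates and gene lists were chosen with earlier results of these data known. Counts were summed per gate and library (Python 3.11.15, NumPy 2.4.6, SciPy 1.17.1, pandas 2.3.3, matplotlib 3.10.9). Cell-type ratios compare a gate with all kept cells outside it and called means 2-fold in both libraries, without a pseudocount; log2 ratios added 10 CPM. No doublet caller was run: cells of several gates and the deepest 5% were left out as alternatives. The interval code was tested on simulated data. All members are described in every gate; pathway genes were named among those at least 2-fold higher in a gate. Gene limits, mitochondrial limits, gates, scaling, weighting and thinning were varied. The table's only measurements are counts. Some genes of the lists are not reported here.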

Additional observations from a re-analysis of the deposited data

Results flagged for a closer look

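Esr1 and Prlr differed between libraries in opposite directions in different cell types; with 1 library per genotype the difference was not tested. The ratio of the library labelled knockout to wild type was, for Esr1, 1.48 in myoid cells and 1.16 in stroma against 0.75 in Leydig cells, and in cells of 1 gate alone all 3 intervals included 1. For Prlr it was 1.66 in Sertoli cells, 1.14 in stroma and 2.30 in macrophages against 0.828 in Leydig cells and 0.869 in myoid cells. Cells of the macrophage gate alone held no Prlr UMI in either library, and in Sertoli cells without Pdgfra the ratio was 1.26 (0.851–1.86).

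The barcodes that passed no gate (214 in the wild type, 162 in the library labelled knockout), not described as a cell type of their own, held 6 of the receptors above the limit that a count of 0 allows. Esr1 was at 10.2 and 15.4 CPM, Nr3c1 at 53.8 and 69.6 CPM, and Fshr at 8.20 and 4.01 CPM, all of the last in cells with 1 to 2 Amh UMIs. Prlr was at 170 and 152 CPM, Thra at 305 and 280 CPM, and Thrb at 3.59 and 4.68 CPM.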

How the results depend on the processing

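No paired analysis was possible because the table does not separate the numbered libraries. The cell type of highest level was the same for at least 6 of the 7 receptors under each alternative: Prlr turned to Leydig cells under the stricter limit on genes per cell, and Nr3c1 to Leydig cells with 1 gate per cell and to germ cells without the 5% of cells with most UMIs. Of the 7, 6 (all but Thra) were 2-fold higher there than outside in both libraries, and 5 with at most 5% mitochondrial UMIs or with means over cells, where Esr1 dropped out. Of the pairs of receptor and gate, 5 were past 1.5-fold between libraries, 2 with only cells of exactly 1 gate, 3 without the 5% of cells with most UMIs, and 3 among Sertoli-gate cells with no Pdgfra UMI, a choice made after seeing the data. The pairs changed too. With exactly 1 gate they were Prlr in Sertoli cells and Nr3c1 in macrophages. Without the deepest 5% they were Nr3c1 and Thra in macrophages and Lhcgr in stroma, so Prlr in Sertoli cells dropped out. With at most 5% mitochondrial UMIs 6 pairs were past 1.5-fold, Prlr in Leydig cells and Lhcgr in stroma among them. With means over cells 7 were, Esr1 in myoid cells among them. The mitochondrial limit left only 42 of 177 wild-type Leydig cells and 30 of 143 of the library labelled knockout. Among the Sertoli-gate cells with no Pdgfra UMI the log2 ratio of Prlr in Sertoli cells turned to -0.00076; this set keeps cells that also pass other gates. All 14 shares of cells with a UMI fell below their 95% intervals when cells were thinned to 5000 UMIs, for example from 37.5% to 14.9% for Fshr in wild-type Sertoli cells, from 50.3% to 19.98% for Esr1 and from 41.2% to 16.2% for Thrb in wild-type Leydig cells, and from 99% to 87.2% for Thra in wild-type Sertoli cells. The background shares moved beyond 1.5 times for 10 of 16 comparisons with at least 100 UMIs per gene, and for 10 with at least 1. Thinning removes UMIs and can only lower shares of cells with a UMI. The cause of the other changes was not tested. Depth limits single-cell readings of Fshr, Esr1 and Thrb, and 12 germ cells limit that gate.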

Other observations

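For each receptor, the genes whose level over the 12 points of 6 gates in 2 libraries was most like its own were ranked by Pearson's r of log2(CPM + 1) among 13924 genes. The points share libraries and cells, so the values are descriptions. Closest to Fshr were Dnaaf1 (0.983), Masp1, Spata21, Vxn and Zfpm1, and closest to Lhcgr were Kcnk3 (0.997), C4b, Oxtr, Dhdh and Gpha2. Prlr was followed by Pdgfd (0.954), Nkain4, Inhba, Plpp3 and Maoa, Esr1 by Gm49265 (0.963), Pdlim2, Cacnb2, Hdac7 and G0s2, and Nr3c1 by Rap2c (0.952), Bcor, Psd3, Ppp3ca and Bag3. Thra was followed by Snrnp70 (0.983), Kdm4b, Sept10, Rbmxl1 and Arhgap5, and Thrb by Gm37437 (0.961), Selenos, Gstk1, Hspa12a and Tkt.

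Summed over all kept cells, the ratio of the library labelled knockout to wild type was 0.712 for Fshr, 1.31 for Lhcgr, 1.22 for Prlr, 1.18 for Esr1, 0.973 for Nr3c1, 1.07 for Thra and 1.03 for Thrb. These sums mix the level per cell type with the share of each type. Of 5 hormone ligand genes of other organs in the table, Pomc alone reached 20 UMIs.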
